A study of Mus musculus with 12 samples.

Results

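The 6 genes described here code for the α1, α2, and α3 chains of collagen types V and VI, and were taken by name from the 30705 gene names of an RNA-seq table. They are *col5a1*, *col5a2*, and *col5a3* for type V and *col6a1*, *col6a2*, and *col6a3* for type VI. They were chosen after results of the same samples were known, so their levels are described without a test, and tests are given for other genes. RNA was measured in 12 samples of murine Braf V600E melanoma cells, 3 in each of 4 groups: a scramble control and knockouts of *ptgs1* (*ptgs1*-KO), of *ptgs2* (*ptgs2*-KO), and of *ptges* (*ptges*-KO). These genes code for the cyclooxygenases COX-1 and COX-2 and for mPGES-1, the synthase that makes prostaglandin E2 from the product of the cyclooxygenases. All groups share the parent line, which was derived from a C57BL/6 mouse with the alleles Braf+/LSL-V600E, Tyr::CreERT2+/o, and p16INK4a-/-, so that Cre under the tyrosinase promoter switched on mutant Braf in pigment cells that lack p16INK4a. Each knockout was made with CRISPR/Cas9, and knockout cells were selected with puromycin and subcloned by limiting dilution. The cells were grown in culture without a further treatment. The study's results call the 3 samples of a group independent, and a figure legend calls them different subclones. It is thus not certain what a sample stands for. They were treated as replicates of the line, so p-values measure the spread between these samples. An effect of a knockout cannot be told apart from one of line or clone selection.

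Collagen chains are made as procollagens that wind around each other in threes to form a triple helix. Type V is a minor fibrillar collagen that is built into the core of type I and III fibrils and limits their width, and its common form holds 2 α1(V) chains and 1 α2(V) chain, while the α3(V) chain occurs in some tissues only. Type VI forms beaded filaments near basement membranes, and its unit is built from 1 α1(VI), 1 α2(VI), and 1 α3(VI) or a related long chain. Fibroblasts are the usual main source of both types in skin.

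The helical part of a chain repeats glycine at every position that faces the axis, and glycine is coded by GGN. The longest uninterrupted run of triplets that begin with GGN was counted in the longest coding sequence of each gene in GENCODE M21. It held 338 triplets in *col5a1*, 339 in *col5a2*, and 337 in *col5a3*, which was 55.2%, 67.9%, and 58.1% of the codons. In *col6a1* and *col6a2* it held 87 triplets, or 25.5% and 25.2% of the codons, and in *col6a3* 45 triplets, or 4.11%. The first 54 bases of that run are shown for the chains with the most mRNA, to make the repeat visible, with the GGN codons in capitals. Each stretch lies on 2 neighbouring exons, with the intron between them left out, in GRCm38.
col5a1, exons 14 and 15, chr2:27964080-27965259, plus strand: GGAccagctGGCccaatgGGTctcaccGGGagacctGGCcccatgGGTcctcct
col5a2, exons 8 and 9, chr1:45423682-45426996, minus strand: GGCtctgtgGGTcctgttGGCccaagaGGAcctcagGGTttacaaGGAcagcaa
col6a1, exons 8 and 9, chr10:76719659-76720996, minus strand: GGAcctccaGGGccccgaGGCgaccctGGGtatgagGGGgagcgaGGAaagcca
col6a2, exons 5 and 6, chr10:76611984-76613290, minus strand: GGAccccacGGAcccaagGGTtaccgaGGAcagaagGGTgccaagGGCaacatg

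The levels are RPKM as deposited, that is, reads per kilobase of transcript scaled to the depth of the sample, so that they may be set against each other between genes. Tests used limma on log2(RPKM + 1) for the 11282 genes whose mean over all samples reached 1 RPKM, with Benjamini-Hochberg adjustment over all of them, and a gene was called at an adjusted p under 0.05. Tukey's test on RPKM, which takes the spread from each gene alone, was run beside it with the same adjustment. Its p-values already allow for all comparisons among the 4 groups, a correction that those of limma do not carry. In bulk RNA fewer cells of a type and less RNA per cell cannot be told apart. A difference on the log2 scale understates the change of genes near or under 1 RPKM. Of the 6 chains, 3 reached a mean of 1 RPKM, *col5a1* in every group, *col5a2* in all but the *ptgs1*-KO group, and *col6a1* in all but the *ptges*-KO group. Among 43 collagen genes in the table, *col5a1* was seventh by its mean, with 22.9 RPKM, *col5a2* followed with 11.7 RPKM, *col6a1* was eleventh with 3.57 RPKM, and *col6a2* came next with 0.849 RPKM. The highest was *col4a1*, a basement membrane chain, with 418 RPKM. *Col5a3* was at place 21 of the 43 with 0.0750 RPKM, and *col6a3* at place 40 with 0.000833 RPKM.

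The targeted genes were lower than in scramble cells in the lines labelled as their knockouts, with the smallest drop for *ptges*. *Ptgs1* was 151 ± 11.5 RPKM in scramble and 16.0 ± 1.49 RPKM in *ptgs1*-KO cells (SD, n = 3), with a limma log2 difference of -3.16 (adjusted p = 4.27e-10). *Ptgs2* was 761 ± 14.2 RPKM in scramble and 79.8 ± 4.38 RPKM in *ptgs2*-KO cells (SD, n = 3), with a limma log2 difference of -3.24 (adjusted p = 4.04e-10). *Ptges* was 77.6 ± 2.43 RPKM in scramble and 37.1 ± 3.37 RPKM in *ptges*-KO cells (SD, n = 3), with a limma log2 difference of -1.05 (adjusted p = 1.07e-06). For each of the 3 genes, every sample of its own knockout was below every other sample. *Ptges* was also lower in *ptgs1*-KO cells, at 54.5 ± 2.76 RPKM (SD, n = 3, limma adjusted p = 0.0011). *Ptgs2* was called lower in *ptgs1*-KO cells as well, at 598 ± 86.4 RPKM (SD, n = 3, limma adjusted p = 0.0386), but under 12 of 20 other limma settings and by Tukey's test (adjusted p = 0.214) it was not, among them leaving out any scramble sample or *ptgs1*-KO sample 1 or 3 (adjusted p = 0.0582 to 0.118).

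The labelled cell type was checked against 10 genes of the melanocyte lineage. *Mitf*, the master factor of the lineage, was the most abundant with a mean of 2.30 RPKM and was the sole member whose mean reached 1 RPKM. *Sox10*, *dct*, *tyrp1*, *mlana*, and *kit* were listed at 0 in all 12 samples. The summed level of the list was 4.22 ± 0.0231 RPKM in scramble, 3.91 ± 1.17 in *ptgs1*-KO, 3.38 ± 0.697 in *ptgs2*-KO, and 2.84 ± 0.770 in *ptges*-KO cells (SD, n = 3). Single samples ranged from 1.96 to 5.25 RPKM, and *mitf* was called in no knockout (limma adjusted p = 0.880, 0.564, and 0.132). The defining markers of pigment cells were thus at 0 or low in all groups of a line labelled melanoma.

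The collagen V chains had different orders over the lines. In *ptgs1*-KO cells *col5a1* was 3.24-fold higher than in scramble cells (52.4 ± 3.73 against 16.1 ± 0.735 RPKM) while *col5a2*, the partner chain, was 23.0-fold lower (0.180 ± 0.0608 against 4.14 ± 0.114 RPKM). In *ptgs2*-KO cells *col5a1* was close to scramble (13.9 ± 2.23 RPKM) while *col5a2* was 8.13-fold higher (33.7 ± 4.37 RPKM). In *ptges*-KO cells *col5a1* was 0.571 times the scramble level (9.22 ± 1.10 RPKM) and *col5a2* was 2.14-fold higher (8.85 ± 1.01 RPKM, all SD, n = 3). The collagen VI chains *col6a1* and *col6a2*, in contrast, were high together in *ptgs1*-KO cells and low together in *ptges*-KO cells.

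*Col5a1*, the α1(V) chain, lies on chr2:27886381-28039510, plus strand, in GRCm38. In RPKM it was 15.31, 16.42, and 16.70 in scramble samples 1 to 3, 56.57, 51.07, and 49.46 in *ptgs1*-KO, 16.05, 13.95, and 11.60 in *ptgs2*-KO, and 10.48, 8.71, and 8.47 in *ptges*-KO samples. The *ptgs1*-KO samples were above all others and the *ptges*-KO samples below all others, while *ptgs2*-KO and scramble samples overlapped. The log2 difference from scramble cells was 1.64 in *ptgs1*-KO, -0.22 in *ptgs2*-KO, and -0.75 in *ptges*-KO cells, each with a standard error of 0.11. Between *ptgs1*-KO and *ptges*-KO cells, the ends of the order, *col5a1* differed 5.68-fold.

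*Col5a2*, the α2(V) chain, lies on chr1:45374331-45503282, minus strand. In RPKM it was 4.05, 4.11, and 4.27 in scramble, 0.11, 0.22, and 0.21 in *ptgs1*-KO, 37.42, 34.72, and 28.87 in *ptgs2*-KO, and 9.91, 8.73, and 7.90 in *ptges*-KO samples. No group overlapped another, and the order from low to high was *ptgs1*-KO, scramble, *ptges*-KO, and *ptgs2*-KO. The log2 difference from scramble cells was -2.13 in *ptgs1*-KO, 2.75 in *ptgs2*-KO, and 0.93 in *ptges*-KO cells, each with a standard error of 0.12. Between *ptgs2*-KO and *ptgs1*-KO cells the RPKM means differed 187-fold. The low end rests on few reads. With the depth estimated from the steps of the values, the *ptgs1*-KO samples held about 11, 21, and 21 reads of *col5a2*, against 903 to 3644 in *ptgs2*-KO and *ptges*-KO samples, so the fold is known less well than the order.

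*Col5a3*, the α3(V) chain on chr9:20770050-20815117, minus strand, was near the floor everywhere. It was 0.26, 0.23, and 0.20 RPKM in scramble, 0.09, 0.02, and 0.03 RPKM in *ptgs1*-KO, and at most 0.03 RPKM in *ptgs2*-KO and *ptges*-KO samples, with 1 sample of each of the latter groups at 0. Each scramble sample was above each knockout sample. These values stand for about 19 to 25 reads in scramble and at most 8 reads in the knockout samples.

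**Figure D1:**
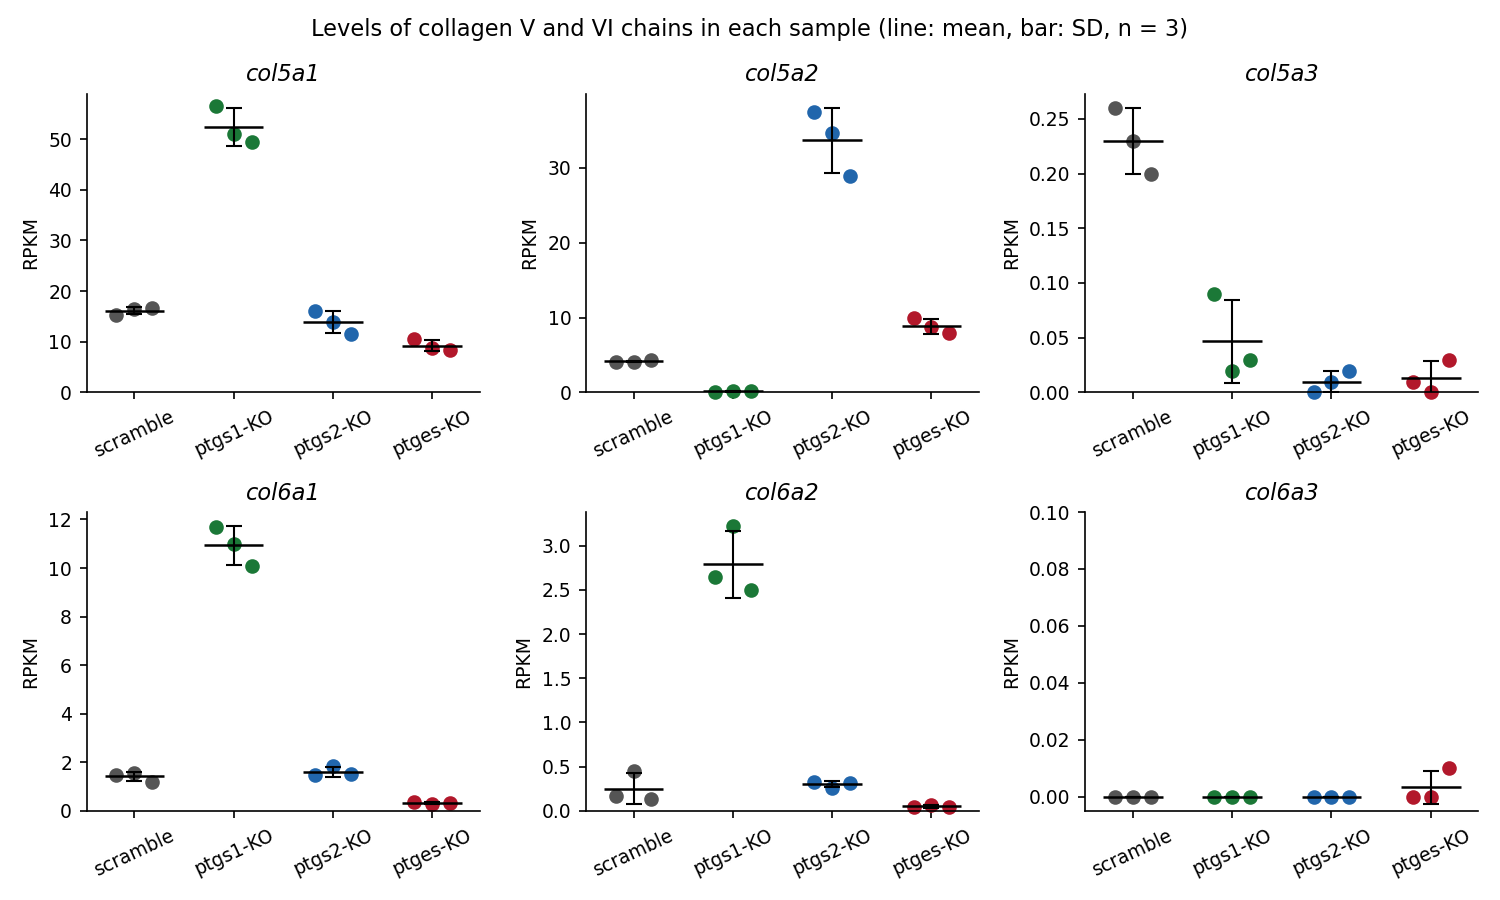
RPKM of the 6 chains (1 panel each, own axis) in each of the 12 samples, grouped by line, with the mean as a line and the SD as a bar (n = 3). *Col5a1*, *col6a1*, and *col6a2* were highest in *ptgs1*-KO cells, where *col5a2* was lowest at 0.11 to 0.22 RPKM, and *col6a3* had 1 sample above 0.

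*Col6a1*, the α1(VI) chain, lies on chr10:76708792-76726044, minus strand. In RPKM it was 1.47, 1.58, and 1.21 in scramble, 11.7, 11, and 10.1 in *ptgs1*-KO, 1.47, 1.84, and 1.52 in *ptgs2*-KO, and 0.36, 0.28, and 0.32 in *ptges*-KO samples. The *ptgs1*-KO samples were above and the *ptges*-KO samples below all others, and scramble and *ptgs2*-KO samples overlapped, which was the order of *col5a1*. The log2 difference from scramble cells was 2.30 in *ptgs1*-KO, 0.11 in *ptgs2*-KO, and -0.87 in *ptges*-KO cells, each with a standard error of 0.11. On the RPKM scale these are a 7.70-fold higher, a 1.13-fold higher, and a 4.44-fold lower mean. The *ptges*-KO samples held about 24, 20, and 23 reads of *col6a1*.

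*Col6a2*, the α2(VI) chain, lies on chr10:76595756-76623630, minus strand. In RPKM it was 0.17, 0.45, and 0.14 in scramble, 2.64, 3.22, and 2.5 in *ptgs1*-KO, 0.33, 0.26, and 0.32 in *ptgs2*-KO, and 0.04, 0.07, and 0.05 in *ptges*-KO samples. It followed the order of *col6a1*, with *ptgs1*-KO above and *ptges*-KO below all other samples. Its mean was 11-fold higher in *ptgs1*-KO and 4.75-fold lower in *ptges*-KO cells, against the scramble mean, with about 10 to 32 reads per scramble sample and 3 to 6 per *ptges*-KO sample. Scramble sample 2 was above both other scramble samples, and without it the folds were 18 and 2.91, and the *ptgs2*-KO mean was 1.96 times the scramble mean. On the log2 scale, fitted without the limit on low values, the differences were 1.60 and -0.24 with a standard error of 0.094.

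*Col6a3*, the long α3(VI) chain on chr1:90766860-90844001, minus strand, was listed at 0 in 11 samples and at 0.01 RPKM in *ptges*-KO sample 3, which stands for about 2 reads. The related chains that can take its place were also near 0. *Col6a4* was 0.02 to 0.04 RPKM, *col6a5* had a mean of 0.00167 RPKM, and *col6a6* was listed at 0 in all samples. Thus no α3(VI)-type chain was above 0.04 RPKM in any sample, beside the *col6a1* and *col6a2* mRNA of *ptgs1*-KO cells.

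Of all 6 chains, 5 did not overlap scramble samples in *ptgs1*-KO cells, 3 of them higher and 2 lower, where 13.7% of the genes tested were apart and higher and 13.2% apart and lower. In *ptgs2*-KO cells 1 was apart and higher and 1 apart and lower, with 19.4% and 15.8% of the genes tested, and in *ptges*-KO cells 1 and 4, with 20.3% and 23%. Since the chains were chosen with these contrasts known, nothing is read from these counts. The 3 comparisons share the scramble samples. As a description of size, the span between the highest and the lowest group mean on the log2 scale was 4.87 for *col5a2* (5th of 11282 genes), 3.17 for *col6a1* (28th), and 2.39 for *col5a1* (77th), against a median of 0.34 over all genes tested.

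The 2 partner chains of type V give a ratio that differs between the lines. *Col5a1* to *col5a2* in RPKM was 3.78, 4, and 3.91 in scramble, 514, 232, and 236 in *ptgs1*-KO, 0.429, 0.402, and 0.402 in *ptgs2*-KO, and 1.06, 0.998, and 1.07 in *ptges*-KO samples. *Ptgs2*-KO cells were the only line with more *col5a2* than *col5a1* mRNA in all 3 samples, and *ptges*-KO cells held about equal levels. The sum of both chains did not follow the ratio. It was 20.3 ± 0.832 RPKM in scramble, 52.5 ± 3.67 in *ptgs1*-KO, 47.5 ± 6.57 in *ptgs2*-KO, and 18.1 ± 2.08 in *ptges*-KO cells (SD, n = 3). The lines with the largest sums, *ptgs1*-KO and *ptgs2*-KO, thus reached them through different chains.

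In type VI, *col6a1* to *col6a2* was 6.93 ± 2.96 in scramble, 3.96 ± 0.512 in *ptgs1*-KO, 5.43 ± 1.44 in *ptgs2*-KO, and 6.47 ± 2.5 in *ptges*-KO cells (SD, n = 3), with overlap between all groups except *ptgs1*-KO and *ptgs2*-KO, whose nearest samples were 4.43 and 4.45. The sum of both was 1.67 ± 0.341, 13.7 ± 0.972, 1.91 ± 0.163, and 0.373 ± 0.0252 RPKM in the same order (SD, n = 3). Here the ratio stayed within 3.42 and 9 in all samples while the sum ranged from 0.35 to 14.34 RPKM.

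**Figure D2:**
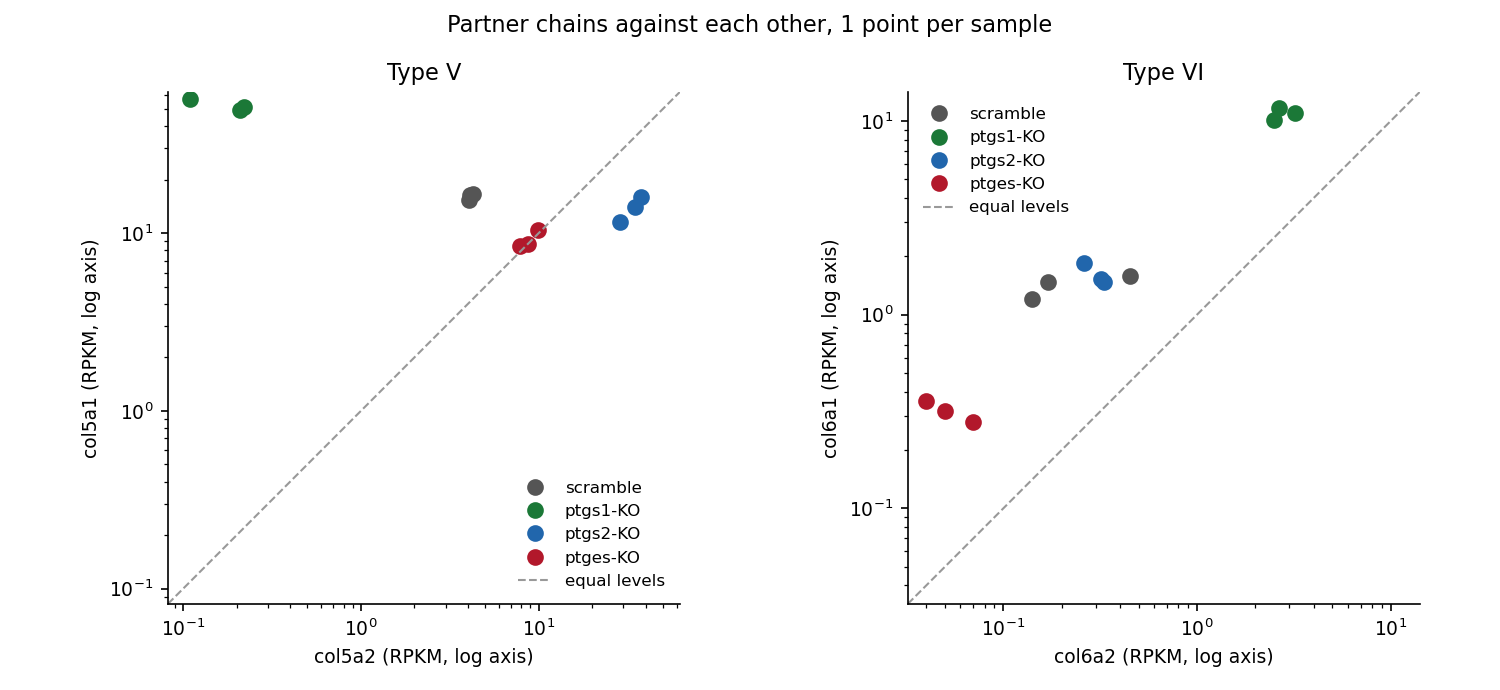
Level of *col5a1* against *col5a2* (left) and of *col6a1* against *col6a2* (right) in RPKM on log axes, 1 point per sample and 1 color per line, with a dashed line where both are equal. The type V points lie on both sides of the line, with ratios from 0.402 in *ptgs2*-KO to 514 in *ptgs1*-KO samples, and the type VI points stay on the side of *col6a1*.

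Across the 12 samples the chains fell into a block of 3 and its opposite. On log2(RPKM + 1), Pearson's r was 0.98 between *col5a1* and *col6a1*, 0.97 between *col5a1* and *col6a2*, and 0.98 between *col6a1* and *col6a2*. It was -0.79 between *col5a1* and *col5a2* and -0.73 between *col5a2* and *col6a1*. The 12 points share 4 lines, so these values describe mostly 4 group means and carry no p. *Col5a1* thus had a higher r with *col6a1* than with its own partner chain.

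The 3 measured chains of the block lie on 2 chromosomes. *Col6a2* and *col6a1* are neighbours in tandem on chromosome 10, on the same strand and 85.2 kb apart, while *col5a1* is on chromosome 2. *Ptges* and *ptgs1* are on that chromosome too, 2850 kb and 8177 kb from *col5a1*. *Col5a2* lies tail to tail with *col3a1* on chromosome 1, with 24.6 kb between them.

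The 250 bases before a RefSeq start of 3 genes, in GRCm38.p6, are shown since *col5a1*, *col6a1*, and *col6a2* had the same order over the lines. For *col5a1* and *col6a2* this start lies inside the gene span given above, so the window reaches into the gene, for *col6a2* with most of its bases. The table held such a window for 5 of the 6 chains. Capitals mark matches to 5 motifs searched on both strands: CCAAT, the GC box GGGCGG, the TATA box TATAAA, the cAMP element TGACGTCA, and the AP-1 element TGAGTCA.
col5a1, chr2:27886175-27886424, plus strand: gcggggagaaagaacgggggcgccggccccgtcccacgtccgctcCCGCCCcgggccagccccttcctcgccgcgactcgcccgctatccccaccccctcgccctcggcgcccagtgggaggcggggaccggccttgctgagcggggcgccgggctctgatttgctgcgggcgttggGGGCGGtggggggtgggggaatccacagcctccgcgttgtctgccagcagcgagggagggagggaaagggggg
col6a1, chr10:76726045-76726294, minus strand: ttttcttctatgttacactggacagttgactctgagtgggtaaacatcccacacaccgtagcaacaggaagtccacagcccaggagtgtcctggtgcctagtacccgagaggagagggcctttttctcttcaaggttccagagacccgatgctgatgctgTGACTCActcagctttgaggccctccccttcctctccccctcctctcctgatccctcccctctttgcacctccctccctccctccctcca
col6a2, chr10:76623405-76623654, minus strand: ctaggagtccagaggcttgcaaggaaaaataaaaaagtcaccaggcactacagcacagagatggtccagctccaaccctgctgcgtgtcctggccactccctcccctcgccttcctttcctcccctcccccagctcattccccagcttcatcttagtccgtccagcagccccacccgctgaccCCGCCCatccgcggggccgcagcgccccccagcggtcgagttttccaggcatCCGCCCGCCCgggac

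*Col5a1* held 2 GC boxes, which begin at -205 and -73 relative to the start, in a window of 76.4% G and C. *Col6a1* held 1 AP-1 element, at -90, and no GC box. *Col6a2* held 3 GC boxes, of which 2 overlap. The window before a further RefSeq start of *col6a2*, chr10:76623631-76623880, lies outside the gene span, is not shown, and held 1 GC box. The 3 windows thus had no motif in common among the 5. *Col5a3* held a CCAAT box and 2 GC boxes, and *col6a3* none of the 5. Among all 32851 promoters in the table, 33.8% held CCAAT, 32.7% GGGCGG, 12.4% TATAAA, 1.55% TGACGTCA, and 4.46% TGAGTCA.

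Genes near the chains were then tested, since position had no part in the choice of the chains. The 3 nearest protein-coding genes with a value on each side of each chain made 30 genes once the chains themselves and repeats were left out, of which 15 reached the limit on low values and were tested. In *ptgs1*-KO cells 2 rose and 1 fell, in *ptgs2*-KO cells 1 rose and 2 fell, and in *ptges*-KO cells 2 rose and 4 fell by limma. These were 20%, 20%, and 40% of the 15, where 9.26% (4.65% higher, 4.61% lower), 11.1% (5.97% higher, 5.17% lower), and 26.3% (11.9% higher, 14.4% lower) of all genes tested were called. The excess of lower genes in *ptges*-KO cells turned with the scaling, to 1895 higher and 1827 lower with median ratio scaling and 1860 higher and 1611 lower after quantile normalization, from 1342 higher and 1627 lower. By Tukey's test 1, 2, and 4 of the 15 were called, where 3.2%, 3.72%, and 10.2% of all genes were. *Olfm1*, a secreted neuronal glycoprotein 153.6 kb from *col5a1*, was 10.2 ± 0.171 RPKM in scramble, 24.6 ± 1.85 in *ptgs1*-KO, 5.61 ± 1.65 in *ptgs2*-KO, and 8.87 ± 1.52 in *ptges*-KO cells (SD, n = 3). It rose in *ptgs1*-KO cells, where *col5a1* was higher too (log2 difference 1.18, limma adjusted p = 0.000335), and fell in *ptgs2*-KO cells (-0.80, limma adjusted p = 0.00678), a call that Tukey's test did not make (adjusted p = 0.209).

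*Rxra*, a nuclear receptor 123.1 kb on the other side of *col5a1*, and *wdr5* and *brd3* beyond it passed the test in no knockout, with log2 differences between -0.18 and 0.23. *Pcbp3*, an RNA-binding protein 35.8 kb from *col6a1*, rose in *ptgs1*-KO cells (0.95, limma adjusted p = 0.00173) and also in *ptges*-KO cells (0.92, limma adjusted p = 0.00103), where *col6a1* was low, but passed Tukey's test in neither (adjusted p = 0.114 and 0.0708). *Col18a1*, the chain that holds endostatin, lies 326.1 kb from *col6a1* and fell in *ptges*-KO cells from 13.3 ± 0.465 to 2.81 ± 0.136 RPKM (SD, n = 3, log2 difference -1.91, limma adjusted p = 2.46e-07). *Lss*, an enzyme of sterol synthesis 38.6 kb from *col6a2*, fell in *ptges*-KO cells too (-0.58, limma adjusted p = 0.000148). *Slc19a1*, a folate carrier on the same side of *col6a1* as *pcbp3*, passed in no knockout.

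The nearest neighbour of *col5a2* was highest in another line. *Col3a1*, the type III chain that forms fibrils with type V, had 466 ± 15.2 RPKM in scramble, 399 ± 29.7 in *ptgs1*-KO, 290 ± 36.8 in *ptgs2*-KO, and 204 ± 17.4 in *ptges*-KO cells (SD, n = 3). It fell in *ptgs2*-KO cells (-0.69, limma adjusted p = 0.000753) and in *ptges*-KO cells (-1.19, limma adjusted p = 2.72e-06), the lines in which *col5a2* was above scramble. *Wdr75*, of ribosome biogenesis, rose in *ptgs2*-KO cells (0.33, limma adjusted p = 0.0069), and *gulp1*, an adaptor of engulfment, rose in *ptges*-KO cells (0.47, limma adjusted p = 0.015). The call of *gulp1* was lost without scramble sample 1 (adjusted p = 0.0682) and without *ptges*-KO sample 2 (0.0514) or 3 (0.0521), and by Tukey's test (0.132). Near *col6a3*, *cxcr7* fell from 2.94 ± 0.881 RPKM in scramble to 0.783 ± 0.1 in *ptgs1*-KO and 0.673 ± 0.0737 in *ptges*-KO cells (SD, n = 3, limma adjusted p = 0.000348 and 0.000104, Tukey's adjusted p = 0.0549 and 0.0217), and *cops8* passed in no knockout. Near *col5a3*, *ubl5* passed in no knockout.

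**Figure D3:**
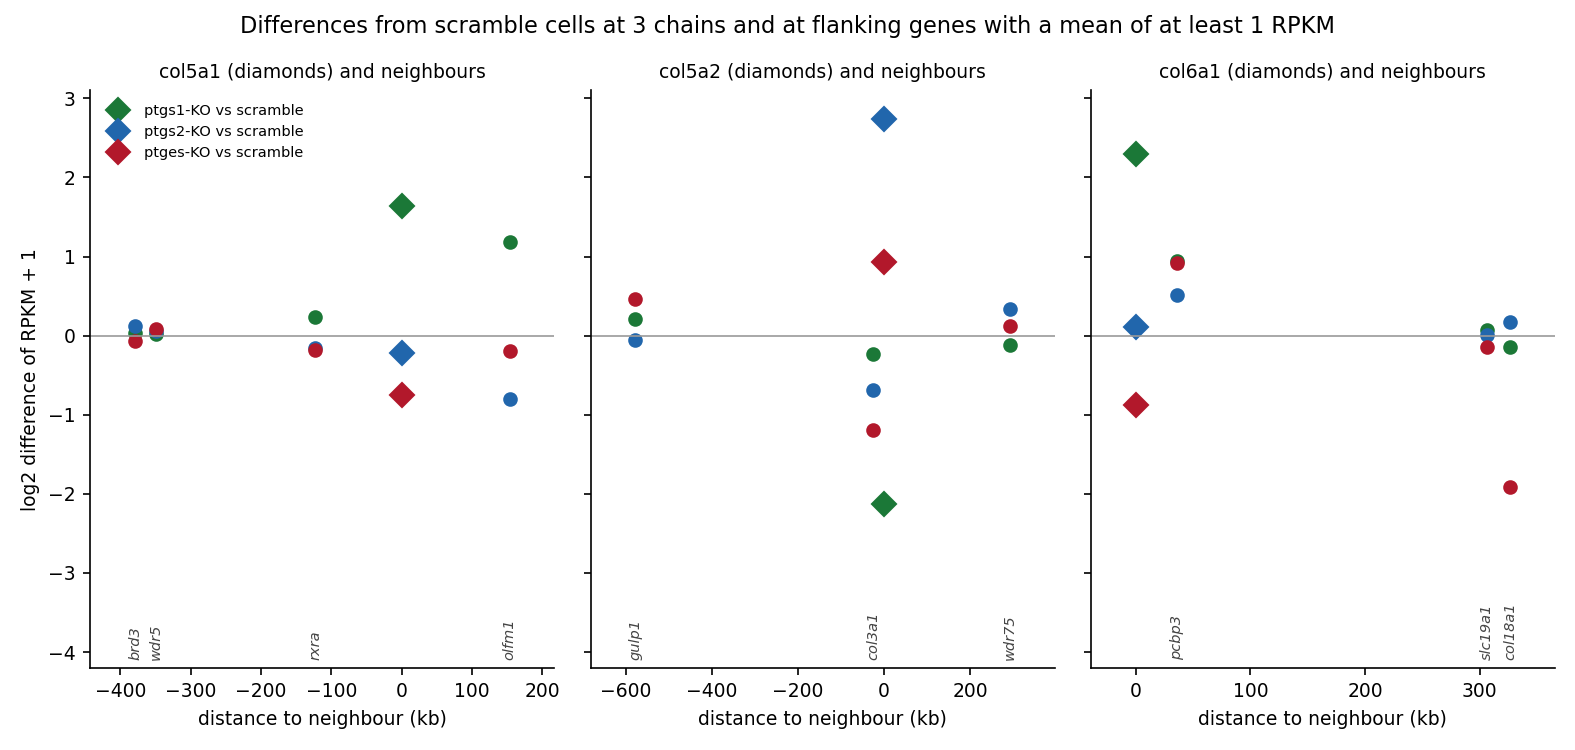
Log2 difference from scramble cells for *col5a1*, *col5a2*, and *col6a1* (diamonds at 0) and for their flanking genes that reached a mean of 1 RPKM (circles, gene names along the lower edge), against the distance between gene ends in kb, negative toward lower coordinates. *Col3a1* was below scramble by 0.69 in *ptgs2*-KO cells where *col5a2* was above it by 2.75.

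Genes that may act with type V or VI were listed in 7 groups, among them other fibrillar chains (for type V), processing enzymes, partners, and receptors. There were 94 such genes, all with a value and 59 of them tested. These lists too were drawn up with results of these samples known. In *ptgs1*-KO cells 8 rose and 3 fell, or 18.6% of those tested against 9.26% of all genes, with a median log2 difference of 0.084 against 0.0069 over all genes, and 7 genes in all were called without scramble sample 2. In *ptgs2*-KO cells 4 rose and 8 fell, or 20.3% against 11.1%, with a median of -0.028 against 0.0088. In *ptges*-KO cells 3 rose and 18 fell, or 35.6% against 26.3%, with a median of -0.18 against -0.030. More of the listed genes fell than rose there under both other scalings too (6 rose and 23 fell, and 7 rose and 25 fell). Tukey's test called 2, 5, and 12 of the 59 in the same order, where it called 3.2%, 3.72%, and 10.2% of all genes. These shares of all genes also apply to Tukey's counts in the single lists below. Between the knockouts limma called 22.0% of the 59 against 16.6% of all genes (*ptges*-KO and *ptgs2*-KO, with 1873 genes called, or 3827 where these 2 lines alone were fitted with the sample number as a block), 47.5% against 23.6% (*ptgs2*-KO and *ptgs1*-KO), and 50.8% against 30.2% (*ptges*-KO and *ptgs1*-KO). The shares are a description and have no test of their own. The 22.0% and 16.6% are from the fit without the block, and no share of the 59 is given for the fit with it.

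Of 8 fibrillar chains other than type V, 1 was tested, *col3a1*, with the values given beside *col5a2*. *Col1a1*, the main chain of type I, had 0.310 ± 0.0700 RPKM in scramble, 0.980 ± 0.144 in *ptgs1*-KO, 0.340 ± 0.0964 in *ptgs2*-KO, and 0.0767 ± 0.0651 in *ptges*-KO cells (SD, n = 3), and its partner *col1a2* had at most 0.247 RPKM in any group mean. The order of *col1a1* was that of *col5a1* and *col6a1*, at a level that was too low to be tested. None of the 3 other type VI chains was tested.

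Among the listed genes, the largest differences from scramble cells were those of matrix partners. Of 21 listed genes 9 were tested, and 3 rose in *ptgs1*-KO cells, 2 rose and 1 fell in *ptgs2*-KO cells, and 1 rose and 5 fell in *ptges*-KO cells. These were 33.3%, 33.3%, and 66.7% of the 9, against 9.26%, 11.1%, and 26.3% of all genes. Tukey's test called 2 (*fn1* and *nid2*), 1 (*tnxb*), and 3 (*fbln2*, *fn1*, and *tnxb*) of them, and its adjusted p for the others was 0.0548 to 0.858. *Fn1*, which codes for fibronectin, on which collagen fibrils are laid down, was 40.95, 45.45, and 45.11 RPKM in scramble, 104.21, 100.46, and 92.34 in *ptgs1*-KO, 42.99, 34.09, and 31.60 in *ptgs2*-KO, and 18.76, 15.05, and 14.59 in *ptges*-KO samples. It rose in *ptgs1*-KO cells (log2 difference 1.16, limma adjusted p = 2.6e-05) and fell in *ptges*-KO cells (-1.39, limma adjusted p = 2.93e-06), with no overlap with scramble samples in either. This was again the order of *col5a1* and *col6a1*.

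*Fbln2*, which codes for fibulin 2, a linker of elastic fibers and basement membranes, was 375 ± 6.66 RPKM in scramble, 401 ± 36.7 in *ptgs1*-KO, 520 ± 50.6 in *ptgs2*-KO, and 76.1 ± 3.27 in *ptges*-KO cells (SD, n = 3). It rose in *ptgs2*-KO cells (0.47, limma adjusted p = 0.00455) and fell in *ptges*-KO cells (-2.29, limma adjusted p = 2.04e-09). *Nid2*, a basement membrane linker, was 9.97 ± 0.295 RPKM in scramble and 26.9 ± 4.04 in *ptgs1*-KO cells (SD, n = 3) and rose there (1.34, limma adjusted p = 1.29e-05) and in *ptges*-KO cells (0.50, limma adjusted p = 0.0107). Its rise in *ptgs2*-KO cells (0.43, limma adjusted p = 0.0443) was lost under 9 of 20 other limma settings, which were the fit with no filter and those without any 1 scramble sample, *ptgs1*-KO sample 2, *ptgs2*-KO sample 1 or 2, or *ptges*-KO sample 2 or 3 (adjusted p = 0.053 to 0.151).

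*Nid1* rose in *ptgs1*-KO cells (0.45, limma adjusted p = 0.0346), a call that was lost with no filter and when any 1 of the scramble samples or *ptgs1*-KO sample 1 or 2 was left out (adjusted p = 0.0647 to 0.129). *Tnxb*, a matrix protein that binds fibrils and, like *col5a1*, is mutated in forms of Ehlers-Danlos syndrome, fell from 3.47 ± 0.515 RPKM in scramble to 1.14 ± 0.180 in *ptgs2*-KO and 1.16 ± 0.279 in *ptges*-KO cells (SD, n = 3, limma adjusted p = 0.000288 and 0.000144). *Hspg2*, which codes for perlecan, fell in *ptges*-KO cells from 390 ± 46.8 to 223 ± 55.4 RPKM (SD, n = 3, limma adjusted p = 0.00368). *Matn2*, a matrilin that links matrix filaments, was the remaining gene that fell there (-0.43, limma adjusted p = 0.0299), which was lost with no filter and without scramble sample 1 or 2 or *ptges*-KO sample 2 (adjusted p = 0.0587 to 0.137). *Sparc*, a collagen-binding protein and the most abundant member, had 816 ± 37.1 RPKM in scramble cells (SD, n = 3) and log2 differences of 0.16, 0.022, and 0.18 with limma adjusted p of 0.354, 0.911, and 0.205. *Dcn*, *lum*, and *postn*, small proteoglycans and periostin that accompany collagen fibrils in connective tissue, were listed at 0 in all samples.

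Of 16 receptors 12 were tested, and 2 rose in *ptgs1*-KO cells, none passed by limma in *ptgs2*-KO cells (1 at an unadjusted p under 0.05), and 2 fell in *ptges*-KO cells. These were 16.7%, 0%, and 16.7% of the 12, against 9.26%, 11.1%, and 26.3% of all genes. Tukey's test called none in *ptgs1*-KO or *ptgs2*-KO cells and 1, *itga5*, in *ptges*-KO cells. *Antxr1*, an anthrax toxin receptor that binds collagen VI, was 1.92, 2.25, and 1.73 RPKM in scramble, 9.66, 6.01, and 4.37 in *ptgs1*-KO, 2.68, 2.35, and 2.41 in *ptgs2*-KO, and 1.36, 1.08, and 1.37 in *ptges*-KO samples. It rose in *ptgs1*-KO cells (log2 difference 1.32, limma adjusted p = 0.000687, Tukey's adjusted p = 0.177), where the samples spread more widely than in any other group. *Sdc4*, a syndecan, rose there too by limma (0.42, adjusted p = 0.00487, Tukey's adjusted p = 0.0700). *Itga5*, the fibronectin receptor chain, fell in *ptges*-KO cells (-0.64, limma adjusted p = 0.00109), and *itga3*, the most abundant receptor with a mean of 807 RPKM, fell there (-0.36, limma adjusted p = 0.0419). That call was lost under 8 of 20 other limma settings, with no filter and without any 1 scramble sample, *ptgs1*-KO sample 2, *ptgs2*-KO sample 2, or *ptges*-KO sample 2 or 3 (adjusted p = 0.0538 to 0.167). *Cspg4*, the NG2 proteoglycan that binds collagen VI on melanoma cells, had a mean of 0.0642 RPKM.

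Of 11 genes of propeptide processing 5 were tested. None passed by limma in *ptgs1*-KO cells (2 at an unadjusted p under 0.05 and 0 by Tukey's test). In *ptgs2*-KO and in *ptges*-KO cells 1 rose and 2 fell, or 60.0% of the 5 against 11.1% and 26.3% of all genes. Tukey's test called 1, *pcolce2*, in *ptgs2*-KO cells and all 3 in *ptges*-KO cells. *Bmp1*, the protease that trims the ends of procollagens V among others, fell from 90.8 ± 1.40 RPKM in scramble to 66.7 ± 7.71 in *ptgs2*-KO and 54.1 ± 1.79 in *ptges*-KO cells (SD, n = 3, limma adjusted p = 0.0112 and 0.000178, Tukey's adjusted p = 0.207 and 0.0242). *Adamts14*, an N-propeptide protease, fell in *ptges*-KO cells (-0.75, limma adjusted p = 0.00017) and in *ptgs2*-KO cells (-0.37, limma adjusted p = 0.03). The latter call was lost with only the 2 groups fitted and without scramble sample 2 or 3 or *ptgs2*-KO sample 2 or 3 (adjusted p = 0.0579 to 0.116). *Pcolce2*, an enhancer of Bmp1, rose from 0.957 ± 0.377 RPKM in scramble to 2.45 ± 0.388 in *ptgs2*-KO and 2.77 ± 0.265 in *ptges*-KO cells (SD, n = 3, limma adjusted p = 0.00321 and 0.000497). *Pcolce*, the related and most abundant member with a mean of 1030 RPKM, had log2 differences of 0.018, -0.22, and -0.059, with limma adjusted p of 0.939, 0.198, and 0.719.

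Of 20 genes of procollagen folding and export 17 were tested, and 3 fell in *ptgs1*-KO cells, 4 fell in *ptgs2*-KO cells, and 1 rose and 6 fell in *ptges*-KO cells. These were 17.6%, 23.5%, and 41.2% of the 17, against 9.26%, 11.1%, and 26.3% of all genes. Tukey's test called 1 (*fkbp14*) in *ptgs2*-KO cells, 3 (*fkbp10*, *p4ha2*, and *plod1*) in *ptges*-KO cells, and none in *ptgs1*-KO cells. The 3 that limma called in *ptgs1*-KO cells, where *col5a1* and *col6a1* were highest, were enzymes that hydroxylate proline or lysine, and all 3 calls were lost by Tukey's test (adjusted p = 0.115 for *p4ha1*, 0.0657 for *plod2*, and 0.735 for *p4ha2*). *P4ha1* fell from 58.7 ± 1.99 to 39.1 ± 2.79 RPKM and *plod2* from 113 ± 2.09 to 78.9 ± 10.4 RPKM (SD, n = 3, limma adjusted p = 0.00137 and 0.0033). *P4ha2* fell there from 8.18 ± 0.682 to 5.68 ± 0.507 RPKM (SD, n = 3, limma adjusted p = 0.0315) and rose in *ptges*-KO cells to 16.4 ± 2.18 RPKM (SD, n = 3, limma adjusted p = 0.000161). Its fall was lost with no filter and without scramble sample 1 or 2 or *ptgs1*-KO sample 1 or 3 (adjusted p = 0.057 to 0.113). *Plod1* fell in *ptgs2*-KO and *ptges*-KO cells (log2 differences -0.57 and -0.69, limma adjusted p = 0.00397 and 0.000474, Tukey's adjusted p = 0.0712 and 0.0204).

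*Fkbp10*, a collagen chaperone, fell in *ptges*-KO cells (-0.69, limma adjusted p = 0.000528). Its fall in *ptgs2*-KO cells (-0.36, limma adjusted p = 0.0459) was lost under 10 of 20 other limma settings, with no filter, with no variance trend, and without any 1 scramble sample, *ptgs1*-KO sample 2, *ptgs2*-KO sample 1 or 3, or *ptges*-KO sample 2 or 3 (adjusted p = 0.0576 to 0.146). *Fkbp14* and *leprel2* fell in *ptgs2*-KO cells (-0.46 and -0.52, limma adjusted p = 0.00877 and 0.00691, Tukey's adjusted p = 0.0140 and 0.0917), and *lepre1*, a prolyl 3-hydroxylase, fell in *ptges*-KO cells (-0.58, limma adjusted p = 0.00573, Tukey's adjusted p = 0.175). *P4hb*, the most abundant member with a mean of 986 RPKM, had limma adjusted p of 0.121, 0.939, and 0.933.

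Factors that are known to act on collagen promoters, with TGF-β ligands, receptors, and targets, made a list of which 14 genes are reported here, all tested. In *ptgs1*-KO cells 3 rose, in *ptgs2*-KO cells none passed by limma (2 at an unadjusted p under 0.05 and 0 by Tukey's test), and in *ptges*-KO cells 1 fell. These were 21.4%, 0%, and 7.14% of the 14, against 9.26%, 11.1%, and 26.3% of all genes. Tukey's test called none of the 3 in *ptgs1*-KO cells (adjusted p = 0.105 to 0.201) and called the 1 in *ptges*-KO cells (adjusted p = 0.0478). *Tgfb1*, the ligand, was 39.1 ± 2.62 RPKM in scramble and 56.6 ± 6.61 in *ptgs1*-KO cells (SD, n = 3) and rose there (0.52, limma adjusted p = 0.00749). Its targets *ctgf* (0.40, limma adjusted p = 0.0121) and *smad7* (0.36, limma adjusted p = 0.0496) rose in the same cells. The call of *ctgf* was lost without scramble sample 2 (adjusted p = 0.0549) and without *ptgs1*-KO sample 2 (0.0558). That of *smad7* was lost under 13 of 20 other limma settings, among them leaving out any 1 scramble or *ptgs1*-KO sample and sample 2 or 3 of the other knockouts (adjusted p = 0.0524 to 0.164). *Tgfbr2*, a receptor, fell in *ptges*-KO cells from 37.05 ± 1.35 to 21.3 ± 3.69 RPKM (SD, n = 3, limma adjusted p = 0.000956). *Smad3*, the most abundant member with a mean of 72.8 RPKM, had limma adjusted p of 0.663, 0.165, and 0.359.

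**Figure D4:**
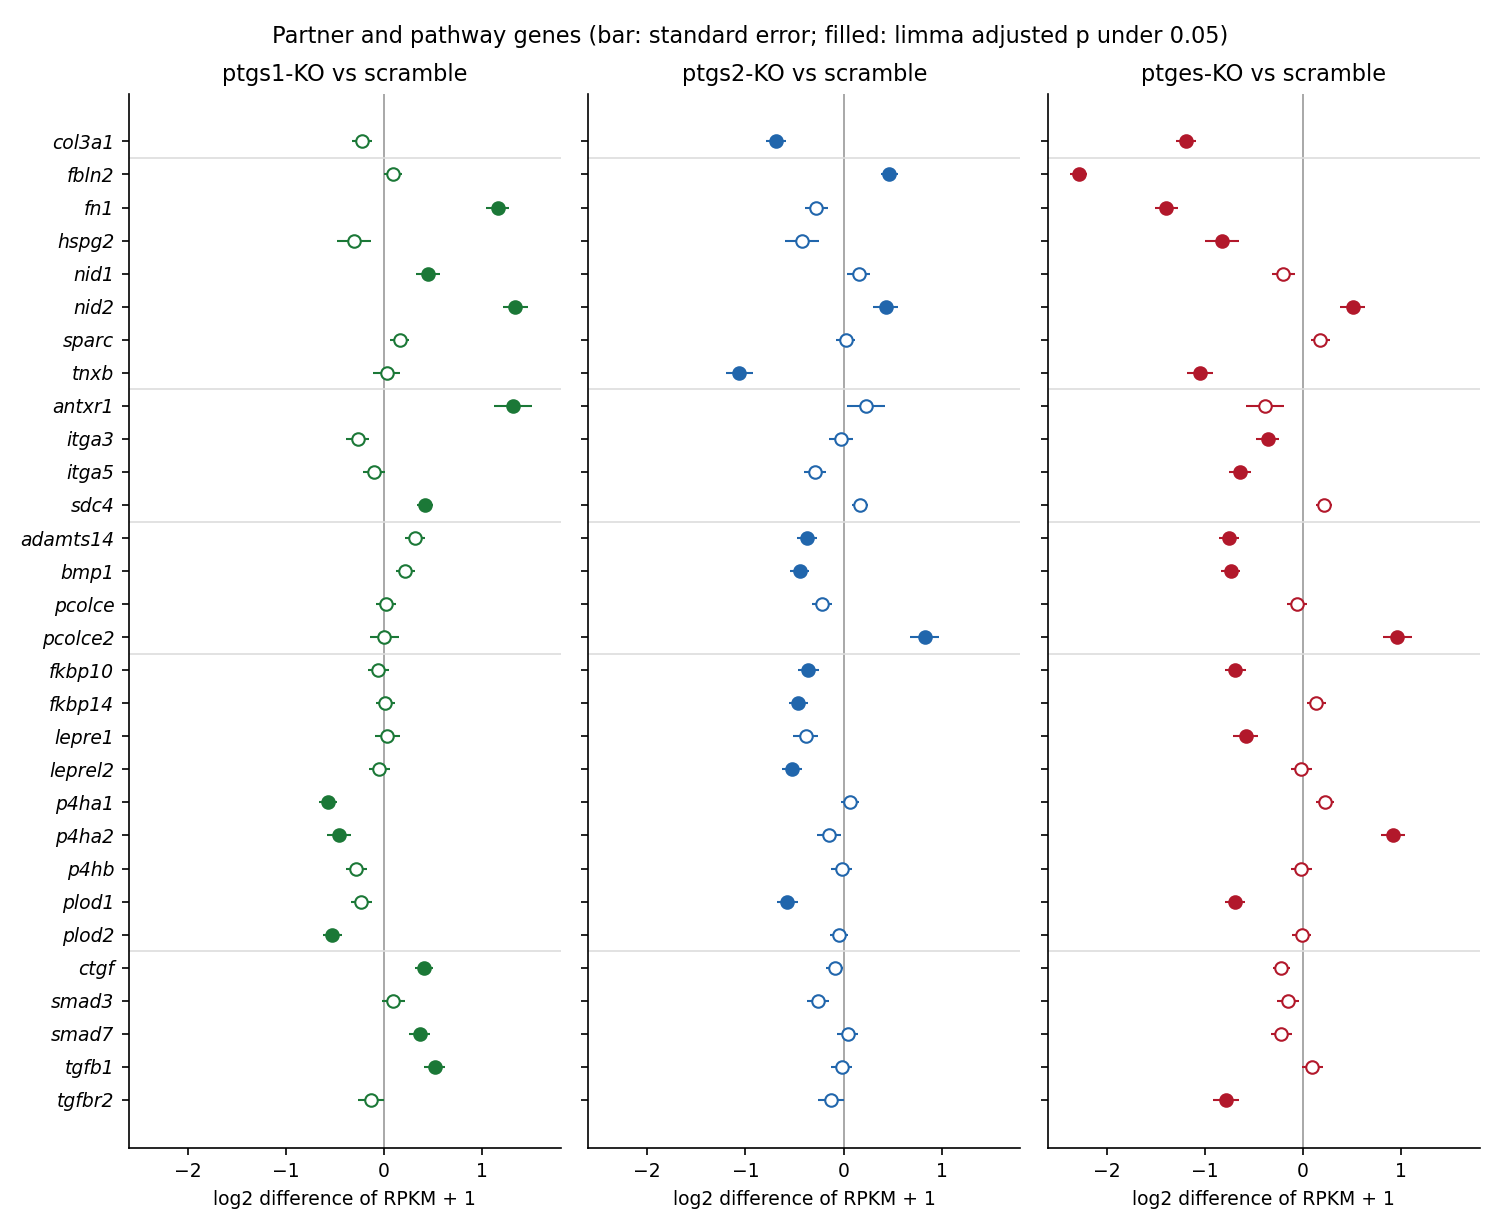
Log2 difference from scramble cells (points) with its standard error (bars) for the partner and pathway genes named in the text, in each knockout, filled where the limma adjusted p was under 0.05, with gray lines between the lists. *Fn1* lay at 1.16 in *ptgs1*-KO and at -1.39 in *ptges*-KO cells, and *fbln2* had the lowest value, -2.29 in *ptges*-KO cells.

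Markers of cells that make collagen in tissue were measured beside the chains. Of 10 fibroblast genes 2 reached a mean of 1 RPKM, *pdgfrb* (the most abundant, 10.4 RPKM) and *pdgfra* (6.91 RPKM), while *dcn*, *lum*, and *postn* were listed at 0 in all samples. The summed level was 20.3 ± 3.31 RPKM in scramble, 29.4 ± 5.74 in *ptgs1*-KO, 10.8 ± 0.949 in *ptgs2*-KO, and 10.9 ± 1.94 in *ptges*-KO cells (SD, n = 3). Its mean was highest in the line with the most *col5a1*, *col6a1*, and *col6a2*, but *pdgfra* and *pdgfrb* were not called there (limma adjusted p = 0.0614 and 0.147). The sum did not follow these chains in the other knockouts. Both had a sum below that of scramble cells, while in *ptgs2*-KO cells the samples of these chains overlapped scramble samples. The list holds *col1a1* and *col1a2*, and 4 of its members, all with a mean under 1 RPKM, are also among the matrix partners. Of 7 macrophage genes 2 reached it, *cd14* (the most abundant, 6.89 RPKM) and *cd68* (1.13 RPKM). *Emr1* and *aif1* were listed at 0, and the summed level was 9.48 ± 1.51 RPKM in scramble, 8.76 ± 1.32 in *ptgs1*-KO, 7.54 ± 0.680 in *ptgs2*-KO, and 6.55 ± 0.175 in *ptges*-KO cells (SD, n = 3). None of 6 endothelial genes reached it, *kdr* and *emcn* were listed at 0, *vwf* was the most abundant at 0.0775 RPKM, and the summed level was 0.187, 0.367, 0.230, and 0.160 RPKM in the same order. The part of other cells in the chain levels was not tested.

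The genes most like each chain over the 12 samples were found by Pearson's r on log2(RPKM + 1). For *col5a1* they were *spn* (0.995), *cldn1* (0.990), *lphn1* (0.989), *scube3* (0.986), and *ptgfr* (0.986), and 48 genes had an r of at least 0.95. *Ptgfr*, the receptor of prostaglandin F2α, had 0.883 ± 0.289 RPKM in scramble, 4.28 ± 0.304 in *ptgs1*-KO, 0.653 ± 0.0702 in *ptgs2*-KO, and 0.133 ± 0.0252 in *ptges*-KO cells (SD, n = 3). *Cldn1*, a tight junction protein, was the most abundant of the 5, with 98.0 ± 0.432 RPKM in scramble and 195 ± 24.3 in *ptgs1*-KO cells (SD, n = 3).

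For *col6a1* they were *tmem119* (0.999), *eno3* (0.987), *rims2* (0.986), *3830403N18Rik* (0.985), and *grem1* (0.984), and 28 genes had an r of at least 0.95. *Grem1*, a secreted antagonist of BMP ligands, had 62.9 ± 2.53 RPKM in scramble, 204 ± 27.3 in *ptgs1*-KO, 61.4 ± 2.53 in *ptgs2*-KO, and 28.8 ± 3.21 in *ptges*-KO cells (SD, n = 3). *Tmem119*, a membrane protein of bone-forming cells and microglia, had 5.81 ± 0.699, 24.1 ± 1.78, 6.14 ± 0.458, and 3.39 ± 0.0289 RPKM in the same order (SD, n = 3).

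For *col5a2* they were *tubb2b* (0.979), *4632434I11Rik* (0.975), *hsph1* (0.972), *dnttip2* (0.972), and *plekhh1* (0.972), and 23 genes had an r of at least 0.95. *Tubb2b*, a β-tubulin, had 3.41 ± 0.0802 RPKM in scramble, 1.13 ± 0.0723 in *ptgs1*-KO, 7.19 ± 0.521 in *ptgs2*-KO, and 4.91 ± 0.426 in *ptges*-KO cells (SD, n = 3), and *hsph1*, a heat shock protein, had 127 ± 4.85, 107 ± 2.06, 179 ± 7.86, and 155 ± 11.8 RPKM (SD, n = 3). These genes shared the order of *col5a2* with far smaller steps. The values of r describe 12 samples in 4 lines and were picked as the highest of 11282 genes.

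**Figure D5:**
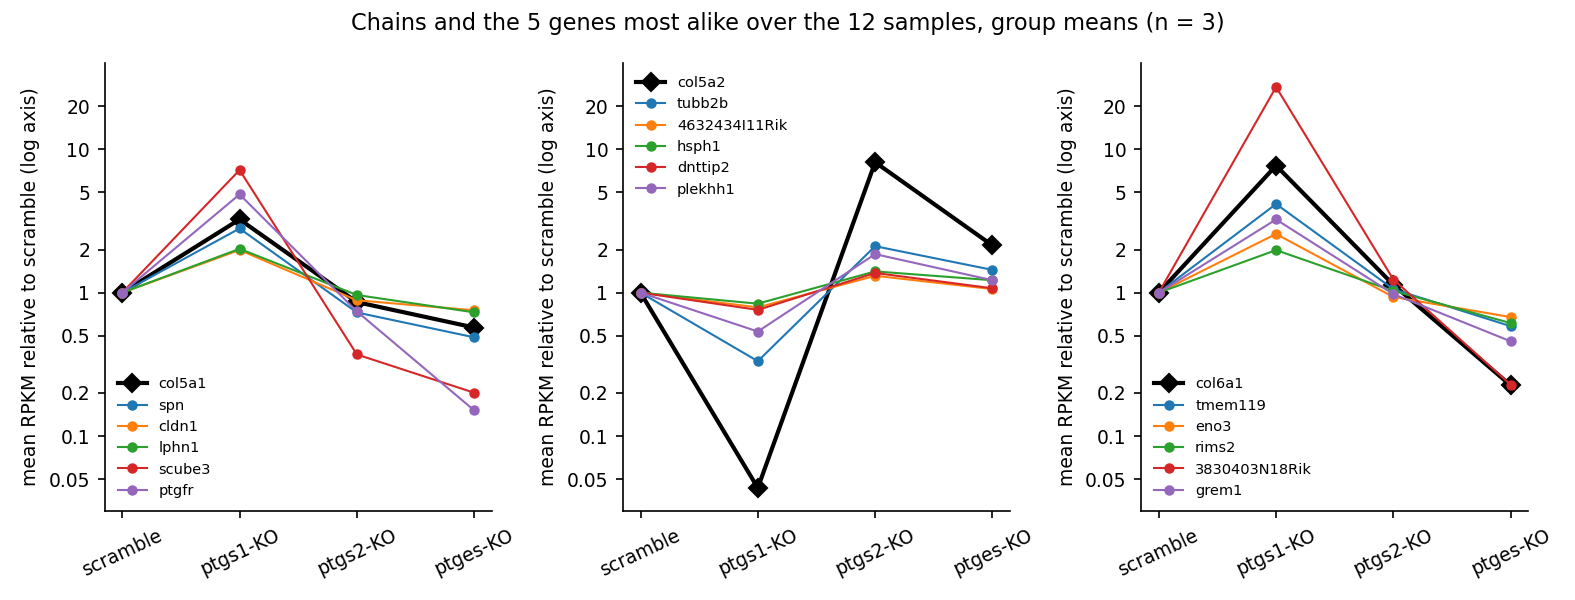
Mean RPKM of *col5a1*, *col5a2*, and *col6a1* (black) and of the 5 genes with the highest Pearson's r to each (colors), divided by the scramble mean, on a log axis, for the 4 lines (n = 3 each). *Col5a2* spanned a wider range than its 5 genes, from 0.0434 in *ptgs1*-KO to 8.13 in *ptgs2*-KO cells.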

How the data were processed

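RNA of 12 samples was sequenced by the authors on a HiSeq 2500 as 101 bp paired-end reads, and the values were deposited as RPKM to 2 decimals. The notes of the submitters list the build mm10, and the aligner and counter are not given in the sources used here. The methods of the study speak of normalized counts for the same table. The labels name a TruSeq v2 and a directional NEXTflex kit, so it is not certain that strand was used in counting. The annotated genes that overlap the chains had no value in the table. Summed RPKM was 878500 to 903880 per sample, and 12082 genes were listed at 0 in all samples. Depth was estimated from the common step of low values of short genes (279 to 421 values per sample) as 13.65 M to 17.25 M reads, with M for mega. The steps were blurred, so read numbers in the text are approximate, and whole reads were not recovered.

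Samples were grouped by their labels, and no column was left out. Genes whose mean reached 1 RPKM were fitted on log2(RPKM + 1) with limma 3.58.1 in R 4.3.3 (lmFit, eBayes with trend, all 12 samples), and p-values were adjusted by Benjamini-Hochberg over all genes tested. The code was checked on simulated data. Coding sequences with their exons, strands, and transcript lengths are from GENCODE M21 on GRCm38. Gene positions are from RefSeq on GRCm38, and promoters from RefSeq on GRCm38.p6. Named genes were the chains, the targeted genes, for each list and comparison at most the 4 called members with the largest difference and the most abundant member, the 3 flanking genes on each side, and the 5 genes with the highest r. *Matn2*, *cspg4*, *col1a1*, *col1a2*, *col6a5*, *col6a6*, *dcn*, *lum*, and *postn* were named outside this rule, after their values were seen. Some genes of the lists and flanks are counted in totals but not reported here by name. Between *ptgs2*-KO and *ptges*-KO cells, deviations of same-numbered samples from the group means had an r of 0.57, 0.11, and 0.25. In no other pair of lines were all 3 values over 0.1. Across numbers, r was 0.32 for *ptgs2*-KO sample 2 with *ptges*-KO sample 3, and 0.22 for *ptgs2*-KO sample 3 with *ptges*-KO sample 2. Pairs of a sample 1 with a sample 2 or 3 of these knockouts had r of -0.28 to -0.47. A pairing by number is thus not shown, and no label says what a number shares. The chains, lists, and alternatives were chosen with earlier results of these data known. Older symbols in the table stand for *p3h1* (*lepre1*), *p3h3* (*leprel2*), and *adgre1* (*emr1*). Figures were drawn with Python 3.11.15 and matplotlib 3.10.9. Alternatives were another pseudocount, filter, scaling, model, or set of samples, and Tukey's test.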

Additional observations from a re-analysis of the deposited data

Results flagged for a closer look

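Some genes lay above scramble cells in 1 knockout and below it in another, in every sample. For the chains the difference between those knockouts is a description on the log2(RPKM + 1) scale and was not tested. It was -2.39 for *col5a1*, -3.17 for *col6a1*, and -1.84 for *col6a2* in *ptges*-KO relative to *ptgs1*-KO cells. For *col5a2* it was 4.87 in *ptgs2*-KO and 3.06 in *ptges*-KO relative to *ptgs1*-KO cells.

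For 3 genes of the lists the knockouts were compared directly by limma. *Fn1* differed by -2.55 (adjusted p = 4.6e-09) and *p4ha2* by 1.38 (adjusted p = 2.3e-06) between *ptges*-KO and *ptgs1*-KO cells. *Fbln2* differed by -2.75 (adjusted p = 2.4e-10) between *ptges*-KO and *ptgs2*-KO cells.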

How the results depend on the processing

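Of the 54 calls given for targeted, flanking, and listed genes in the knockouts against scramble cells, 43 were kept under each limma setting that could be fitted and 11 were lost under at least 1 of them. Tukey's test made 27 of the 54 calls, all among those 43 (5 of 17 in *ptgs1*-KO, 6 of 14 in *ptgs2*-KO, and 16 of 23 in *ptges*-KO cells). None changed direction. Settings moved the numbers of genes called. In *ptgs1*-KO cells 1045 were called, 582 with a mean of at least 10 RPKM, 1583 after quantile normalization, and 361 with Tukey's test on RPKM. In *ptgs2*-KO cells 1257 were called, 1927 with median ratio scaling and 420 with Tukey's test. In *ptges*-KO cells 2969 were called and 1151 with Tukey's test. Between knockouts Tukey's test called 639 genes and limma 1873 (*ptges*-KO and *ptgs2*-KO), 1300 and 2665 (*ptgs2*-KO and *ptgs1*-KO), and 1590 and 3409 (*ptges*-KO and *ptgs1*-KO). Genes of the pathway lists called were 11 in *ptgs1*-KO, 12 in *ptgs2*-KO, and 21 in *ptges*-KO cells, 2, 5, and 12 with Tukey's test, and 32 in *ptges*-KO cells after quantile normalization. Flanking genes called in *ptgs1*-KO cells were 3, 5 with no filter, and 1 with Tukey's test, and in *ptgs2*-KO cells 3, or 5 with median ratio scaling. With a pseudocount of 0.1, the differences of *col5a2* from scramble cells were -3.95 in *ptgs1*-KO, 2.98 in *ptgs2*-KO, and 1.07 in *ptges*-KO cells, and those of *col6a1* 2.87 and -1.85 in *ptgs1*-KO and *ptges*-KO cells. After quantile normalization *col6a1* was 0.21 in *ptgs2*-KO and -0.75 in *ptges*-KO cells. The cause of these shifts was not tested, except that a smaller pseudocount widens differences of low values by construction.

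With 1 sample left out, genes called ranged from 645 to 1163 in *ptgs1*-KO, 722 to 1559 in *ptgs2*-KO, and 1936 to 3282 in *ptges*-KO cells, and from 1104 to 2236, 2004 to 2840, and 2298 to 3566 in the comparisons between knockouts in the order above. Counts moved by over 1.5 times in *ptgs1*-KO cells without scramble sample 1 (645) or 2 (658), and in *ptgs2*-KO cells without scramble sample 1 (722), 2 (771), or 3 (829) or *ptgs2*-KO sample 1 (822) or 3 (802). They did so in *ptges*-KO cells without *ptges*-KO sample 2 (1936), and where *ptges*-KO was set against *ptgs2*-KO without *ptgs2*-KO sample 1 (1209) or *ptges*-KO sample 2 (1104) or 3 (1193). Pathway genes called ranged from 7 to 14, 9 to 14, and 16 to 26, the 7 without scramble sample 2, and flanking genes from 3 to 3, 3 to 4, and 5 to 6.

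Over all lines, r of the deviations of same-numbered samples had a mean of 0.0123 over 18 pairs (-0.341 to 0.566, 5 of them over 0.1), and 0 of 12 samples had the highest r with their own number in every group. With the replicate number as a block, 1105, 1365, and 3099 genes were called in the 3 knockouts, and 2011, 2771, and 3561 between them, none of which moved by 1.5 times. Fitted with the block on *ptges*-KO and *ptgs2*-KO samples alone, an alternative added after seeing the data, 3827 genes were called between them, against 1487 without the block, and *fbln2* kept its call (adjusted p = 1.06e-05).

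Low levels limit what the chains can show. *Col5a3*, *col6a3*, *col5a2* in *ptgs1*-KO cells, *col6a1* in *ptges*-KO cells, and *col6a2* in all but *ptgs1*-KO cells rest on few reads.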
